A study of Mus musculus with 88 samples.

Results

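The early growth response (Egr) genes *Egr1*, *Egr2*, *Egr3* and *Egr4* were followed through all nuclear RNA libraries of the series, as the 4 of 53749 gene IDs in the count tables whose mouse symbols are those of this family. Members were taken by gene name alone, and the family was picked with earlier results of these data known. Nuclear RNA counts every transcript that is still in the nucleus, introns included, so it follows recent transcription more closely than whole-cell mRNA does. Nuclei came from male C57BL/6J mice aged 4 months and were sorted from 2 regions, the medial prefrontal cortex (mPFC) and the hippocampus (HIP). Mice were collected 10 minutes (CFC10) or 30 minutes (CFC30) after being placed in the chamber for contextual fear conditioning (CFC), in which a foot shock is paired with a new place, or were naive and came from their home cages. These nuclei were sorted with NeuN, a protein of neuronal nuclei, into a NeuN+ and a NeuN- fraction, with 4 libraries for each condition in the HIP and 3 in the mPFC. In a second experiment mice received corticosterone (2 mg/kg, into the peritoneum) or saline, and 30 minutes later hippocampal nuclei were sorted into NeuN+, GFAP+ (astrocytes), PU.1+ (microglia) and 3X- nuclei, which carried none of these 3 marks and are rich in oligodendrocytes, with 4 libraries for each treatment and population. γH2AX, a histone mark of DNA double-strand breaks, was mapped in whole tissue of naive and CFC30 mice, with 3 animals pooled for each replicate.

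Egr proteins are zinc finger transcription factors that bind GC-rich sites in DNA. Their genes are early response genes: synaptic activity and growth factors switch them on within minutes, without new protein synthesis, through calcium and MAP kinase signalling that acts on SRF with its Elk and Mrtf partners and on Creb1 at their promoters. The Nab proteins bind Egr factors and mostly repress them, and *Nab2* is itself an Egr target, so the pair forms a feedback loop. Outside the brain, *Egr2* is needed for myelination by Schwann cells, *Egr3* for muscle spindles and *Egr4* for sperm formation in mice, and *Egr1* is widely used to mark neurons that were recently active.

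The annotation used was GENCODE vM21 on GRCm38. *Egr2* (ENSMUSG00000037868) lies there on chromosome 10 from 67535475 to 67542188 on the + strand, and *Egr4* (ENSMUSG00000071341) on chromosome 6 from 85511121 to 85513589 on the - strand. Promoters of *Egr2* and *Egr4*, 2 of the 4 members, were matched in RefSeq (GRCm38.p6), and the 250 bases before their start are shown because both genes rose within 10 minutes of CFC and the sites that SRF and Creb1 read lie in such windows. For *Egr2*, of which RefSeq lists several starts, the window shown is chr10:67537619-67537868 (+), inside the annotated gene, chosen after the motif search, and for *Egr4* it is chr6:85513590-85513839 (-). Capitals mark the CArG box, the core of the serum response element bound by SRF, and the short form of the cAMP response element (CRE, TGACG on 1 strand and CGTCA on the other).
Egr2 promoter: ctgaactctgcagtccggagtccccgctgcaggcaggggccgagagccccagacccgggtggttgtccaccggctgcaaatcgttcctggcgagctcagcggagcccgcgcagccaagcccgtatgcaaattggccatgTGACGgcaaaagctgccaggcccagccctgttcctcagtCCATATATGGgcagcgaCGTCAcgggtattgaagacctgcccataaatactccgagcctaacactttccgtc
Egr4 promoter: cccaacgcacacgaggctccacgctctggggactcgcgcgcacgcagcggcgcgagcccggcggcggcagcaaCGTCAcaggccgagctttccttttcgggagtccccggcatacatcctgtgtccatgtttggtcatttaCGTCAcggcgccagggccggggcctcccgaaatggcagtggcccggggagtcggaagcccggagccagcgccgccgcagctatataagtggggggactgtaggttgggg
The *Egr2* window held a CArG box, CCATATATGG, from base -72 to -63 before the start, with TGACG at -111 to -107 and CGTCA at -55 to -51. Windows of neighbouring starts that overlap it held the same sites. The *Egr2* window nearest the annotated gene start (chromosome 10, 67535249 to 67535498) held none of the motifs searched, and the one from 67537316 to 67537565 held another CArG box, CCTTTTTTGG, and no CRE form. The *Egr4* window held CGTCA at -177 to -173 and at -109 to -105, and no CArG box. Among all 32851 promoter windows of the same length and searched on both strands, 1.47% held a CArG box and 17.8% the short CRE form. The full CRE, TGACGTCA (1.55% of windows), and the Egr site GCGNGGGCG (4.7%) were in neither window. These are matches of letters, and no binding was measured here.

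Each member is a short gene, of 5162 bp for *Egr1*, 6714 bp for *Egr2*, 5412 bp for *Egr3* and 2469 bp for *Egr4* from annotated start to end. Whether other annotated genes overlap them was not checked. Library totals were 10561897 to 18271372 counts in the HIP, 10577263 to 16392677 in the mPFC and 5935395 to 12758257 in the corticosterone experiment. For naive NeuN- nuclei of the HIP, replicates 3 and 4 held equal counts in all 53749 genes and were counted as 1 library, which leaves n = 3 in that group. The study calls its RNA-seq replicates independent, but the sources used here do not say for each library whether it came from its own animal, so the p-values measure the spread between these libraries. Fractions and populations were gated from the same sorted nuclei, so their libraries may share animals. Comparisons between fractions or populations treat the libraries as independent. The sort held in the markers: 6 neuron markers summed to 4977 to 6471 CPM (counts scaled by the library total) in all NeuN+ libraries, against 152 to 535 CPM in NeuN- libraries of the HIP and mPFC. In bulk nuclei, fewer cells of a type and less RNA in each of them cannot be told apart. A member was tested where its mean FPKM, which is CPM per kilobase from gene start to gene end, was above 0.2 in at least 1 group of the fit, and it was called at an adjusted p under 0.05 in edgeR's quasi-likelihood test over all genes tested. Each SE given is the absolute log2 fold change divided by the square root of the F statistic of that test.

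In mPFC NeuN+ nuclei all 4 Egr genes were higher 10 minutes after CFC than in naive mice, several-fold in mean CPM. *Egr1* had 6.98, 4.98 and 2.90 CPM in naive nuclei, 36.0, 45.1 and 40.1 CPM at 10 minutes and 15.4, 17.7 and 20.8 CPM at 30 minutes. Every library at either time was above every naive one, and the 10-minute libraries stood clear of the 30-minute ones. *Egr3* had 4.31, 7.05 and 5.24 CPM in naive nuclei, 35.7, 27.5 and 27.8 CPM at 10 minutes and 25.0, 24.9 and 24 CPM at 30 minutes, so that it stayed near its early level. *Egr2* was almost silent at baseline, with 2, 0 and 1 counts in naive libraries, and reached 39, 49 and 52 counts at 10 minutes (3.22, 3.33 and 4.02 CPM) and 16, 21 and 20 counts at 30 minutes (1.10, 1.28 and 1.55 CPM). *Egr4* had 0.689, 0.249 and 0.645 CPM in naive nuclei, 5.29, 3.46 and 1.47 CPM at 10 minutes and 1.44, 1.16 and 0.853 CPM at 30 minutes. It was the least even of the family at 10 minutes, with its lowest library there only just above the highest at 30 minutes.

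**Figure D1:**
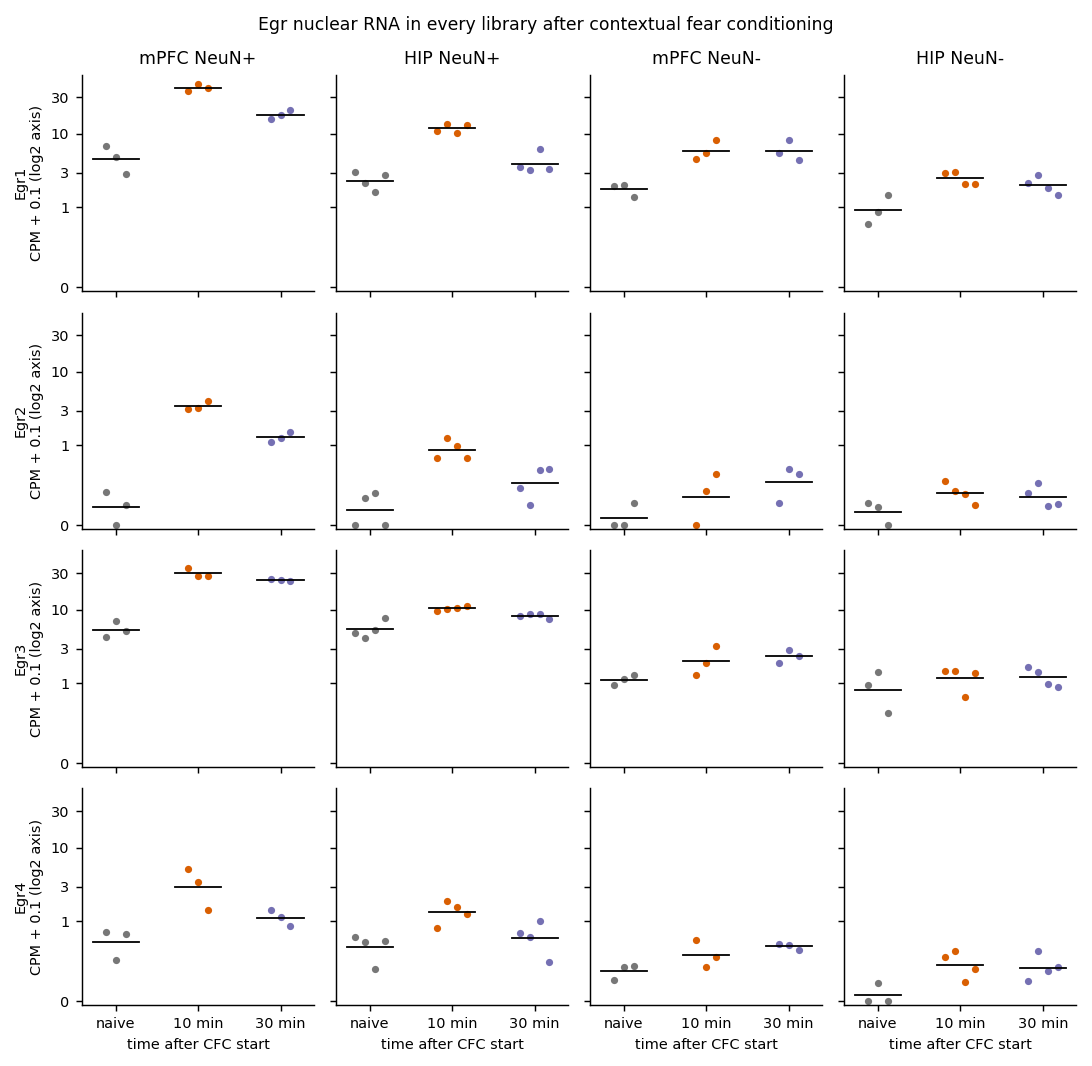
Nuclear RNA of the 4 Egr genes (rows) by region and fraction (columns), as CPM + 0.1 on a log2 axis, with naive, 10-minute and 30-minute groups from left to right. Points are libraries and lines are means of the log2 values, and in mPFC NeuN+ nuclei every 10-minute point of every member lies above all naive points.

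At 10 minutes, 4 of 4 members rose in mPFC NeuN+ nuclei, where 8.19% of all genes tested rose. *Egr2* passed the FPKM threshold there only through the CFC10 group (0.525 FPKM, against 0.0126 in naive nuclei and 0.195 at CFC30). Its place in this count, and in those of the later comparisons in this fraction, was therefore not independent of its CFC10 level. *Egr1* averaged 40.4 ± 4.56 CPM at CFC10 and 4.95 ± 2.04 CPM in naive nuclei (SD, n = 3 each), a log2 fold change of 3.04 (SE 0.15, adjusted p = 1.98e-12). *Egr3* averaged 30.4 ± 4.65 and 5.53 ± 1.40 CPM, a log2 fold change of 2.44 (SE 0.13, adjusted p = 2.52e-12). *Egr4* averaged 3.41 ± 1.91 and 0.528 ± 0.242 CPM, a log2 fold change of 2.66 (SE 0.42, adjusted p = 0.000103). The *Egr2* change was the steepest, with a fitted log2 fold change of 5.25 (SE 0.43, adjusted p = 8.14e-09). It rests on 140 counts at CFC10 and 3 counts in naive nuclei, a ratio of 42.3 in pooled CPM with a 95% interval of 14.2 to 208 (Clopper-Pearson, counting error only). This interval is wider than the SE implies, so the SE understates the error of *Egr2* at such low naive counts.

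After 30 minutes 3 of 4 members were above naive, where 13.1% of genes rose. The 30-minute and 10-minute comparisons share the naive libraries. *Egr3* averaged 24.6 ± 0.588 CPM at CFC30, a log2 fold change of 2.17 (SE 0.13, adjusted p = 6.36e-11), and *Egr1* averaged 18.0 ± 2.69 CPM, a log2 fold change of 1.88 (SE 0.17, adjusted p = 3.18e-08). *Egr2* had 57 counts, with a fitted log2 fold change of 3.84 (SE 0.54, adjusted p = 1.15e-05) and a ratio of 15.6 (95% interval 5.09 to 78, counting error only). Here too the interval is wider than the SE implies. *Egr4* averaged 1.15 ± 0.296 CPM and was not called (log2 fold change 1.15, SE 0.53, adjusted p = 0.119), although its libraries did not overlap the naive ones. It passed in a fit of these groups alone (adjusted p = 0.0359) and without the FPKM threshold (adjusted p = 0.0172).

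Between 10 and 30 minutes most of the family fell back. In mPFC NeuN+ nuclei 3 of 4 members fell, where 0.531% of genes did: *Egr1* by 1.16 (SE 0.11, adjusted p = 1.42e-06), *Egr2* by 1.41 (SE 0.22, adjusted p = 0.00143) and *Egr4* by 1.51 (SE 0.33, adjusted p = 0.0194) on the log2 scale. For *Egr3* the difference was -0.27 (SE 0.09, adjusted p = 0.172), with no overlap between the 30-minute and the 10-minute libraries. Whether *Egr3* differed from its relatives in this step was not tested. The *Egr4* fall was lost without replicate 1 or 2 of CFC10 or replicate 2 or 3 of CFC30 (adjusted p up to 0.140). DESeq2 gave no adjusted p for the *Egr2* or *Egr4* fall. The *Egr2* fall starts from the CFC10 group through which *Egr2* passed the FPKM threshold.

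Some glial marker sums moved with the condition in these sorted neurons, not all in the same direction. The 6 oligodendrocyte markers summed to 120 to 156 CPM at CFC10 and 118 to 184 CPM at CFC30, against 65.0 to 87.0 CPM in naive mPFC NeuN+ libraries, and the 6 astrocyte markers to 667 to 746 CPM at CFC10 and 706 to 714 CPM at CFC30, against 608 to 659 CPM. The 7 microglia markers, at 18.8 to 24.4 CPM in naive libraries, overlapped these at CFC10 (18.4 to 20.6 CPM) and were lower at CFC30 (17.8 to 18.5 CPM). Sums of the 2 oligodendrocyte precursor markers overlapped between conditions. The 6 neuron markers summed to 6117 to 6471 CPM at CFC10 and 5954 to 6110 CPM at CFC30, against 6145 to 6352 CPM. Their part in the Egr changes was not tested.

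In hippocampal NeuN+ nuclei all 4 genes were again highest at 10 minutes in mean CPM, at lower means than in the mPFC. *Egr1* had 3.09, 2.23, 1.64 and 2.79 CPM in naive nuclei, 11.0, 13.5, 10.2 and 12.9 CPM at 10 minutes and 3.61, 3.24, 6.31 and 3.37 CPM at 30 minutes. The 10-minute libraries stood apart from all others, while at 30 minutes 3 of 4 libraries were only just above the naive range and replicate 3 was well above it. *Egr3* had 4.92, 4.27, 5.40 and 7.86 CPM in naive nuclei, 9.75, 10.2, 10.6 and 11.2 CPM at 10 minutes and 8.18, 8.74, 8.67 and 7.55 CPM at 30 minutes. *Egr4* had 0.584, 0.495, 0.164 and 0.507 CPM in naive nuclei, 0.806, 1.92, 1.61 and 1.26 CPM at 10 minutes and 0.682, 0.582, 1.00 and 0.220 CPM at 30 minutes. *Egr2* gave 0, 2, 2 and 0 counts in naive libraries, 9, 14, 14 and 12 counts at 10 minutes and 3, 1, 6 and 6 counts at 30 minutes. All 4 genes were clear of the naive libraries at 10 minutes, but *Egr2* reached a mean of only 0.133 FPKM and was not tested.

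Of the 3 members tested at 10 minutes, 3 rose, where 2.72% of all genes tested did. *Egr4* passed the FPKM threshold only in the CFC groups (0.567 FPKM at CFC10 and 0.252 at CFC30, against 0.177 in naive nuclei). *Egr1* averaged 11.9 ± 1.55 CPM at CFC10 and 2.43 ± 0.640 CPM in naive nuclei (SD, n = 4 each), a log2 fold change of 2.25 (SE 0.18, adjusted p = 1.61e-07). *Egr3* averaged 10.4 ± 0.605 and 5.61 ± 1.57 CPM, a log2 fold change of 0.88 (SE 0.13, adjusted p = 0.000587). *Egr4* averaged 1.40 ± 0.480 and 0.437 ± 0.187 CPM, a log2 fold change of 1.58 (SE 0.38, adjusted p = 0.0212), and lost its call without CFC10 replicate 3 or naive replicate 3 (adjusted p up to 0.0729). DESeq2 gave no adjusted p for this *Egr4* change. For *Egr2*, 49 counts at CFC10 against 4 in naive nuclei gave a ratio of 11.2 (95% interval 4.11 to 42.7, counting error only), and without the FPKM threshold it was called at a log2 fold change of 3.34 (adjusted p = 3.40e-06), in a fit that gave far smaller p-values for the other members too.

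At 30 minutes the hippocampal levels were closer to naive. In HIP NeuN+ nuclei 2 of 3 members tested were called, where 4.67% of genes rose. *Egr3* averaged 8.29 ± 0.547 CPM at CFC30, a log2 fold change of 0.57 (SE 0.14, adjusted p = 0.0120) whose groups overlapped, and *Egr1* averaged 4.13 ± 1.46 CPM, a log2 fold change of 0.77 (SE 0.22, adjusted p = 0.0363). The *Egr1* call was lost without CFC30 replicate 3 (0.50, adjusted p = 0.160) and without naive replicate 2, 3 or 4 (adjusted p = 0.0985, 0.123 and 0.0520), and the *Egr3* call without naive replicate 2 (adjusted p = 0.0565). *Egr4* was not called (0.49, SE 0.46, adjusted p = 0.567), and *Egr2*, not tested, had 16 counts against 4, a ratio of 3.85 (95% interval 1.24 to 15.8, counting error only). From 10 to 30 minutes *Egr1* fell by 1.49 on the log2 scale (SE 0.16, adjusted p = 4.65e-05), 1 of 3 members where 0.161% of genes fell. *Egr3* differed by -0.31 (SE 0.12, adjusted p = 0.388) and *Egr4* by -1.10 (SE 0.35, adjusted p = 0.257).

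**Figure D2:**
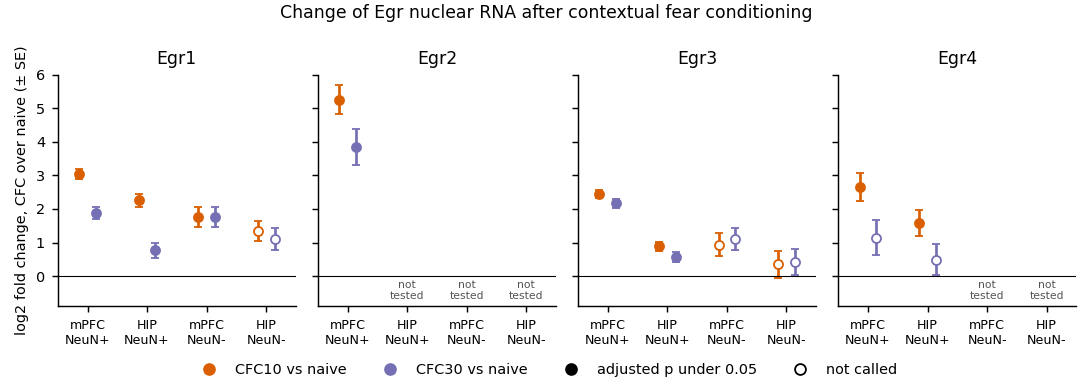
Fitted log2 fold change of each Egr gene at CFC10 and CFC30 over naive, by region and fraction, with bars of 1 SE derived from the F statistic. Filled points passed an adjusted p of 0.05 and open ones did not, and the largest value is that of Egr2 in mPFC NeuN+ nuclei (5.25).

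The change was compared between regions in a single fit of NeuN+ libraries, in which region and kit version cannot be told apart, because the mPFC libraries were made with an earlier version of the same kit. *Egr3* changed more in the mPFC than in the HIP at both times, by 1.54 at CFC10 (SE 0.21, adjusted p = 0.000341) and by 1.60 at CFC30 (SE 0.21, adjusted p = 5.82e-05) on the log2 scale. It was the 1 member of 4 called at either time, where 0.756% of genes differed at CFC10 and 2.29% at CFC30. Its naive levels were alike, at 5.53 ± 1.40 CPM in the mPFC and 5.61 ± 1.57 CPM in the HIP. For *Egr1* the differences were 0.77 at CFC10 (SE 0.30, adjusted p = 0.384) and 1.11 at CFC30 (SE 0.33, adjusted p = 0.0710), and the second passed without HIP CFC30 replicate 3 (adjusted p = 0.0121) or mPFC naive replicate 1 (adjusted p = 0.0197). *Egr2* and *Egr4* were not called.

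Per kilobase of gene, *Egr3* and *Egr1* were the major members in neurons. In naive mPFC NeuN+ nuclei *Egr3* had 1.02 ± 0.258 FPKM, *Egr1* 0.959 ± 0.394, *Egr4* 0.214 ± 0.0982 and *Egr2* 0.0126 ± 0.0128 FPKM (SD, n = 3), and the SDs of the first pair overlapped. At 10 minutes the levels were 7.82 ± 0.883 FPKM for *Egr1*, 5.61 ± 0.860 for *Egr3*, 1.38 ± 0.774 for *Egr4* and 0.525 ± 0.0647 FPKM for *Egr2*. At 30 minutes *Egr3* had the highest mean with 4.55 ± 0.109 FPKM, against 3.48 ± 0.522 for *Egr1*, 0.467 ± 0.12 for *Egr4* and 0.195 ± 0.0337 FPKM for *Egr2*. Of the summed Egr FPKM in HIP NeuN+ nuclei, *Egr1* took 27.9 ± 5.31% in naive mice, 46.7 ± 3.35% at 10 minutes and 29.9 ± 5.09% at 30 minutes (SD, n = 4). The *Egr3* share was 61.0 ± 8.99% in naive mice, 39.3 ± 3.31% at 10 minutes and 59.2 ± 7.32% at 30 minutes. Gene-body lengths include introns, so these are levels per annotated length and not per transcript.

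In NeuN- nuclei, which hold mostly glia, *Egr1* was the member that was called. In the mPFC it had 2.00, 2.03 and 1.42 CPM in naive nuclei, 4.56, 5.61 and 8.35 CPM at 10 minutes and 5.58, 8.35 and 4.42 CPM at 30 minutes, so that both later groups lay above the naive one and overlapped each other. *Egr3* had 0.955, 1.15 and 1.32 CPM in naive nuclei, 1.32, 1.93 and 3.30 CPM at 10 minutes and 1.92, 2.90 and 2.44 CPM at 30 minutes. *Egr2* gave 0 to 5 counts and *Egr4* 1 to 6 counts in mPFC NeuN- libraries, and neither was tested.

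Of 2 members tested in mPFC NeuN- nuclei, 1 rose at 10 minutes, where 0.74% of genes did, and 1 at 30 minutes, where 2.68% did. *Egr1* averaged 6.17 ± 1.96 CPM at CFC10 and 6.12 ± 2.02 CPM at CFC30, against 1.82 ± 0.344 CPM in naive nuclei (SD, n = 3 each), log2 fold changes of 1.75 (SE 0.29, adjusted p = 0.0103) and 1.77 (SE 0.29, adjusted p = 0.00218). The 10-minute call was lost without any 1 of the naive replicates 1, 2 and 3 (adjusted p = 0.0674, 0.0505 and 0.0529), and the 30-minute call was not. DESeq2 gave no adjusted p for either member at CFC10 and called *Egr1* at CFC30. *Egr3* was not called, at 0.93 (SE 0.34, adjusted p = 0.195) and 1.11 (SE 0.34, adjusted p = 0.0669), and its 30-minute difference passed with a replicate block (adjusted p = 0.0391) and in a fit of these groups alone (adjusted p = 0.0351). Between 30 and 10 minutes edgeR called 0 of 2 members, where 0.148% of genes fell (82 genes rose and 22 fell of 14866). Neither had an unadjusted p under 0.05, and DESeq2 called 0 of the 1 for which it gave an adjusted p.

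In hippocampal NeuN- nuclei no member was called. *Egr1* and *Egr3* passed the FPKM threshold there only through the CFC groups. For *Egr1* the means were 0.500 FPKM at CFC10 and 0.408 at CFC30, against 0.187 in naive nuclei. For *Egr3* they were 0.232 FPKM at both times, against 0.168. Their place in the counts of this fraction was therefore not independent of their CFC levels. *Egr1* had 0.568, 0.860 and 1.48 CPM in naive nuclei, 3.01, 3.09, 2.11 and 2.11 CPM at 10 minutes and 2.18, 2.85, 1.88 and 1.52 CPM at 30 minutes. Every CFC library was above every naive one, yet the log2 fold changes of 1.35 at CFC10 (SE 0.30, adjusted p = 0.0723) and 1.11 at CFC30 (SE 0.31, adjusted p = 0.0735) did not pass. At CFC10 it passed with both identical naive libraries kept (adjusted p = 0.0352), with a replicate block (adjusted p = 0.0453) and without the FPKM threshold (adjusted p = 0.00111). *Egr3* had 0.947, 1.43 and 0.347 CPM in naive nuclei, 1.5, 1.5, 0.624 and 1.38 CPM at 10 minutes and 1.69, 1.47, 0.977 and 0.894 CPM at 30 minutes, with differences of 0.36 (SE 0.40, adjusted p = 0.711) and 0.42 (SE 0.40, adjusted p = 0.640) and overlapping groups. *Egr2* gave 0 to 3 counts and *Egr4* 0 to 4 counts in these libraries. Of 2 members tested, edgeR called 0 at CFC10 (0.122% of genes rose), 0 at CFC30 (1.2%) and 0 between 30 and 10 minutes (0.0676% fell, with 15 genes rising and 10 falling of 14802). The unadjusted p was under 0.05 for 1, 1 and 0 of them, and DESeq2 gave an adjusted p for none. The 6 oligodendrocyte markers summed to 4730 to 5064 CPM at CFC30, above the 4356 to 4640 CPM of naive libraries. At CFC10 their sums overlapped the naive ones (4614 to 5570 CPM). Sums of the astrocyte and microglia markers overlapped between conditions. The part of these sums in the Egr values was not tested.

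At baseline *Egr1*, *Egr3* and *Egr4* were lower in NeuN- than in NeuN+ nuclei, in a comparison in which most genes tested differed. In the naive HIP, *Egr1* differed by -1.77 (SE 0.33, adjusted p = 2.96e-05) and *Egr3* by -3.01 (SE 0.28, adjusted p = 8.59e-11) on the log2 scale, and *Egr4* had 1 count in NeuN- nuclei against 23 in NeuN+ nuclei (adjusted p = 0.000277). *Egr2*, with 2 counts against 4, was not tested. The calls were 3 of 3 members tested, where 70.8% of genes differed in either direction. *Egr4* was below the FPKM threshold in both naive groups (0.177 FPKM in NeuN+ and 0.00967 in NeuN- nuclei). It entered this fit only through the NeuN+ CFC groups (0.567 FPKM at CFC10 and 0.252 at CFC30), so its place in this count was not independent of those levels. In the naive mPFC, *Egr1* differed by -1.94 (SE 0.32, adjusted p = 9.25e-06), *Egr3* by -2.79 (SE 0.27, adjusted p = 1.72e-09) and *Egr4* by -2.24 (SE 0.79, adjusted p = 0.0148), 3 of 4 where 69.5% did. The mPFC *Egr4* call was lost without NeuN- naive replicate 1, NeuN+ naive replicate 1 or NeuN+ naive replicate 3 (adjusted p up to 0.0569), and *Egr2*, with 1 count against 3, was not called (adjusted p = 0.287). *Egr2* entered the mPFC fit only through NeuN+ nuclei at CFC10 (0.525 FPKM). TMM scaling moved these NeuN- against NeuN+ values by -0.47 in the HIP and -0.52 in the mPFC relative to plain CPM.

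Neuron markers were also detected in the NeuN- fraction. In CPM, *Egr1* in NeuN- nuclei stood at 36.7% of its NeuN+ level in the naive mPFC and 39.8% in the naive HIP, and *Egr3* at 20.6% and 16.2%. The 6 neuron markers together stood at 3.76% and 7.71%, and none of them was at 0 in any library. At 10 minutes *Egr1* stood at 15.3% in the mPFC and 21.7% in the HIP, *Egr3* at 7.19% and 12%, and the markers at 3.75% and 6.53%. At 30 minutes *Egr1* stood at 34.1% and 50.9%, *Egr3* at 9.83% and 15.2%, and the markers at 4.00% and 6.75%. At each time both genes were relatively more abundant in NeuN- nuclei than the neuron markers were. The summed neuron markers in mPFC NeuN- nuclei overlapped between conditions, at 195 to 281 CPM at CFC10 and 170 to 277 CPM at CFC30, against 152 to 350 CPM in naive libraries. Other markers moved with condition there without overlap. Those of oligodendrocytes (6) summed to 5189 to 5357 CPM at CFC10 and 4919 to 5338 CPM at CFC30, against 4377 to 4753 CPM in naive libraries. Those of microglia (7) summed to 935 to 1085 CPM at CFC10 and 922 to 1102 CPM at CFC30, against 1212 to 1281 CPM, and those of oligodendrocyte precursors (2) to 237 to 255 CPM and 256 to 274 CPM, against 285 to 327 CPM. The astrocyte markers overlapped, at 6391 to 6566 CPM at CFC10 and 6422 to 7173 CPM at CFC30, against 6422 to 6814 CPM. The part of these shifts in the *Egr1* rise of mPFC NeuN- nuclei was not tested. How much of the Egr RNA in this fraction came from neurons was not tested.

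**Figure D3:**
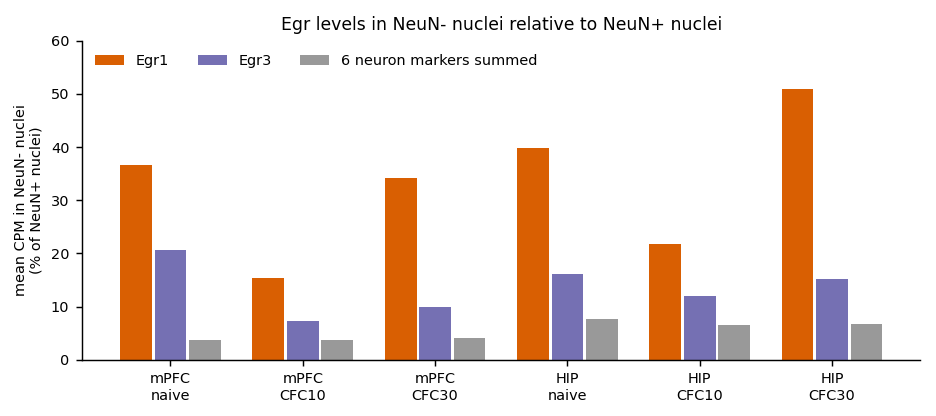
Mean CPM in NeuN- nuclei as a percentage of mean CPM in NeuN+ nuclei, for Egr1, Egr3 and the sum of 6 neuron markers, in the mPFC and HIP of naive, CFC10 and CFC30 mice. Bars for Egr1 run from 15.3% to 50.9% and those for the markers from 3.75% to 7.71%.

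The change itself was also set against the other fraction, as NeuN- minus NeuN+. In the mPFC the difference at CFC10 was -1.51 for *Egr3* (SE 0.41, adjusted p = 0.0550) and -1.27 for *Egr1* (SE 0.42, adjusted p = 0.139), and edgeR called 0 of 4 members, where 1.88% of genes were called. Both had an unadjusted p under 0.05, and DESeq2 called both, at adjusted p = 0.00248 for *Egr3* and 0.0245 for *Egr1*. Without NeuN- CFC10 replicate 3, edgeR called both too (adjusted p = 0.00667 for *Egr3* and 0.0434 for *Egr1*), and it called *Egr3* without NeuN+ CFC10 replicate 2 (adjusted p = 0.0485) or NeuN+ naive replicate 2 (adjusted p = 0.0255). At CFC30 *Egr3* differed by -1.07 (SE 0.40, adjusted p = 0.159) and *Egr1* by -0.12 (SE 0.43, adjusted p = 0.996), with 0 of 4 called where 4.18% of genes were, 1 at an unadjusted p under 0.05 and 0 of 2 by DESeq2. In the HIP 0 of 3 were called at CFC10 (0.0312% of genes) and at CFC30 (0.293%), with 1 and 0 at an unadjusted p under 0.05 and no adjusted p from DESeq2. There *Egr1* differed by -0.94 (SE 0.43, adjusted p = 0.630) and 0.33 (SE 0.42, adjusted p = 0.900), and *Egr3* by -0.56 (SE 0.42, adjusted p = 0.831) and -0.16 (SE 0.43, adjusted p = 0.993). Between the regions, 0 of 2 members differed in NeuN- nuclei at CFC10 (0% of genes) or CFC30 (0.101%), with none at an unadjusted p under 0.05 and, at CFC30, 0 of 2 by DESeq2.

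Corticosterone, the main glucocorticoid of rodents and a ligand of the glucocorticoid and mineralocorticoid receptors, left no member past the threshold in any of the 4 hippocampal populations. In NeuN+ nuclei *Egr3* had 6.44, 4.26, 5.25 and 7.21 CPM after corticosterone, against 8.09, 7.10, 6.39 and 7.99 CPM after saline, and *Egr1* had 3.67, 1.51, 2.22 and 2.93 CPM, against 3.38, 3.34, 3.70 and 3.52 CPM. Corticosterone libraries were more spread and mostly lower, but both pairs of groups overlapped. The differences were -0.32 for *Egr3* (SE 0.14, adjusted p = 0.367) and -0.39 for *Egr1* (SE 0.21, adjusted p = 0.484), with 0 of 3 members called where 1.26% of genes rose (160 rose and 101 fell of 12664), 1 (*Egr3*) at an unadjusted p under 0.05, and no adjusted p from DESeq2.

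In GFAP+ nuclei *Egr1* had 2.20, 5.40, 2.67 and 3.51 CPM after corticosterone, against 2.91, 2.72, 3.28 and 2.84 CPM after saline (0.26, SE 0.25, adjusted p = 0.762). *Egr3* had 2.20, 4.12, 4.41 and 4.83 CPM, against 4.37, 3.34, 5.9 and 4.45 CPM (-0.15, SE 0.23, adjusted p = 0.869). The groups overlapped for both genes, and edgeR called 0 of 3 members where 2.03% of genes rose. *Egr4* passed the FPKM threshold there only through the corticosterone group (0.279 FPKM, against 0.170 after saline). In PU.1+ nuclei *Egr1* had 2.49, 4.84, 3.84 and 1.39 CPM after corticosterone, against 2.82, 1.73, 3.29 and 2.51 CPM after saline (0.27, SE 0.32, adjusted p = 0.718). *Egr3* had 2.83, 4.70, 4.22 and 2.20 CPM, against 2.28, 2.4, 3.78 and 2.38 CPM (0.36, SE 0.26, adjusted p = 0.542). Replicates 2 and 3 were high for both genes after corticosterone, and 0 of 3 members were called where 4.43% of genes rose. In 3X- nuclei *Egr1* had 1.35, 0.778, 0.784 and 1.37 CPM after corticosterone, against 2.44, 1.35, 0.887 and 1.21 CPM after saline (-0.49, SE 0.36, adjusted p = 0.515). *Egr3* had 1.52, 0.908, 1.18 and 1.98 CPM, against 0.698, 1.08, 1.66 and 0.771 CPM (0.38, SE 0.36, adjusted p = 0.640). The groups overlapped for both, and 0 of 2 members were called where 5% of genes rose. *Egr3* passed the FPKM threshold there only through the corticosterone group (0.258 FPKM, against 0.195 after saline). No member had an unadjusted p under 0.05 in GFAP+, PU.1+ or 3X- nuclei, and DESeq2 called 0 of 2 in GFAP+ and 0 of 2 in PU.1+ nuclei and gave no adjusted p in 3X- nuclei. *Egr4* was at 0 to 8 counts and *Egr2* at 0 to 4 counts in every library of this experiment, and the *Egr4* differences were not called where tested.

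Some marker sums moved with treatment without overlap. In PU.1+ nuclei the 6 astrocyte markers summed to 921 to 1182 CPM after corticosterone, against 638 to 861 CPM after saline, and the 7 microglia markers to 6201 to 6548 CPM, against 6601 to 7152 CPM. In 3X- nuclei the 6 oligodendrocyte markers summed to 9569 to 10745 CPM after corticosterone, against 8879 to 9384 CPM after saline. In NeuN+ nuclei the 6 astrocyte markers summed to 247 to 279 CPM after corticosterone, against 282 to 303 CPM after saline. Their part in the corticosterone values given here was not tested.

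Differences in the response to corticosterone between populations were tested for 3 members, without *Egr2*, and edgeR called none at this depth. This does not show that the populations respond alike. No member of 3 was called for GFAP+ minus PU.1+ (2.14% of genes were called), GFAP+ minus 3X- (1.42%), GFAP+ minus NeuN+ (0.513%), PU.1+ minus 3X- (3.97%), PU.1+ minus NeuN+ (1.53%) or 3X- minus NeuN+ (2.01%). An unadjusted p under 0.05 was reached once, by *Egr3* in PU.1+ minus NeuN+, and DESeq2 called no member in these comparisons.

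**Figure D4:**
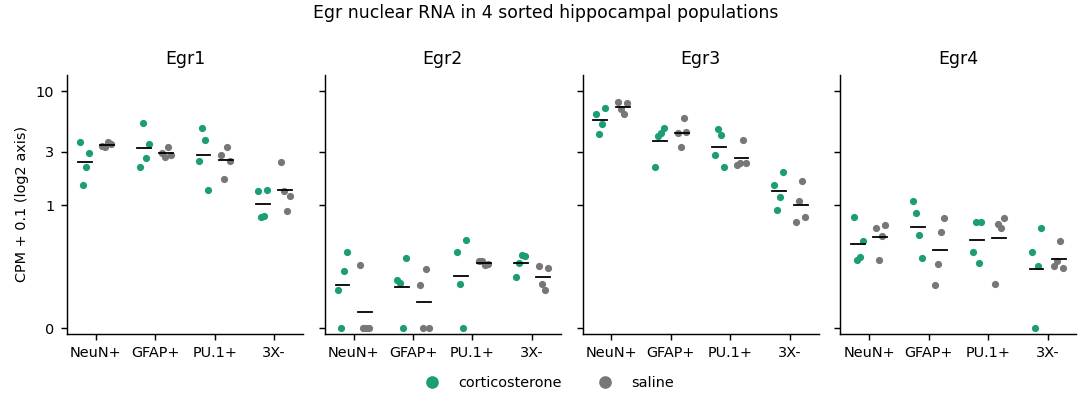
Nuclear RNA of the 4 Egr genes in the 4 sorted populations of the HIP (NeuN+, GFAP+, PU.1+, 3X-), as CPM + 0.1 on a log2 axis, with corticosterone left of saline in each population. Points are libraries and lines are means of the log2 values, and the treated and saline points of Egr1 and Egr3 overlap in all 4 populations.

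In the saline libraries *Egr3*, and in part *Egr1*, could be ordered by cell population. *Egr3* averaged 7.39 ± 0.802 CPM in NeuN+, 4.51 ± 1.06 CPM in GFAP+, 2.71 ± 0.714 CPM in PU.1+ and 1.05 ± 0.439 CPM in 3X- nuclei (SD, n = 4 each), and every neighbour in this order differed. GFAP+ was below NeuN+ nuclei by -1.05 (SE 0.19, adjusted p = 6.75e-06) and above PU.1+ nuclei by 0.88 (SE 0.24, adjusted p = 0.00122), and PU.1+ was above 3X- nuclei by 1.15 (SE 0.32, adjusted p = 0.00197) on the log2 scale. Across the other pairs *Egr3* differed by 2.02 for GFAP+ over 3X- (SE 0.29, adjusted p = 4.58e-08), by -1.93 for PU.1+ over NeuN+ (SE 0.22, adjusted p = 9.70e-11) and by -3.07 for 3X- over NeuN+ (SE 0.26, adjusted p = 2.24e-14).

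For *Egr1* fewer steps of the order were called. It averaged 3.48 ± 0.160 CPM in NeuN+, 2.94 ± 0.242 CPM in GFAP+, 2.59 ± 0.654 CPM in PU.1+ and 1.47 ± 0.675 CPM in 3X- nuclei. GFAP+ and PU.1+ nuclei were not told apart (0.32, SE 0.28, adjusted p = 0.344), nor were PU.1+ and 3X- nuclei (0.61, SE 0.33, adjusted p = 0.112), although the second passed without 3X- replicate 1 (adjusted p = 0.0208). GFAP+ nuclei were below NeuN+ nuclei by -0.60 (SE 0.26, adjusted p = 0.0455), a call that was lost in 11 of 13 alternative fits, among them DESeq2 (adjusted p = 0.113), DESeq2 size factors (0.0710), and leaving out any NeuN+ replicate or GFAP+ replicate 1, 2 or 4. *Egr1* was above 3X- in GFAP+ nuclei by 0.93 (SE 0.31, adjusted p = 0.0115), which was lost without 3X- replicate 3 (adjusted p = 0.0612). It was below NeuN+ in PU.1+ nuclei by -0.92 (SE 0.27, adjusted p = 0.00296) and in 3X- nuclei by -1.53 (SE 0.30, adjusted p = 2.28e-05). *Egr4* averaged 0.541 ± 0.277 CPM in PU.1+, 0.505 ± 0.162 CPM in NeuN+, 0.421 ± 0.284 CPM in GFAP+ and 0.292 ± 0.103 CPM in 3X- nuclei after saline, with no pair called. *Egr2*, not tested, had 8 counts in PU.1+, 6 in 3X-, 3 in GFAP+ and 2 in NeuN+ nuclei over 4 libraries each, too few to order the populations. Without the FPKM threshold no pair was called for *Egr2*. Of 3 members tested, edgeR called 2 for GFAP+ over NeuN+ (60.8% of genes in either direction), 1 for GFAP+ over PU.1+ (64.1%), 2 for GFAP+ over 3X- (51.6%), 1 for PU.1+ over 3X- (59.9%), 2 for PU.1+ over NeuN+ (68.1%) and 2 for 3X- over NeuN+ (61.3%).

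Relative to NeuN+ nuclei of saline mice, *Egr1* in CPM stood at 84.3% in GFAP+, 74.3% in PU.1+ and 42.3% in 3X- nuclei, and *Egr3* at 61.1%, 36.7% and 14.3%. The 6 neuron markers stood at 22.7%, 17.1% and 9.71%, and they summed to 945 to 1345 CPM in GFAP+, 689 to 1031 CPM in PU.1+ and 416 to 574 CPM in 3X- nuclei after saline. Markers of the sorted type were high in each, at 11337 to 14274 CPM for 6 astrocyte markers in GFAP+, 6601 to 7152 CPM for 7 microglia markers in PU.1+ and 8879 to 9384 CPM for 6 oligodendrocyte markers in 3X- nuclei. TMM scaling moved these populations by -0.28 to -0.49 on the log2 scale relative to NeuN+ nuclei, and the part of neuronal RNA in the Egr levels was not tested.

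γH2AX peaks lay over 3 of 4 Egr genes in the mPFC and over 1 of 4 in the HIP. The deposited lists join naive and CFC30 peaks that were called on merged replicates, so they hold no value for a condition or replicate and allow no test. *Egr1* (ENSMUSG00000038418) lies on chromosome 18 from 34859823 to 34864984 on the + strand, and *Egr3* (ENSMUSG00000033730) on chromosome 14 from 70077203 to 70082614 on the + strand. In the mPFC a peak at chromosome 18 from 34858631 to 34866542 (7912 bp) covered all of *Egr1*, from -1192 bp before its start to 1558 bp past its end. Another, at chromosome 14 from 70076423 to 70087007 (10585 bp), covered all of *Egr3* and reached 4393 bp past its end. The third, at chromosome 6 from 85509895 to 85513586 (3692 bp), covered 99.9% of *Egr4*, began 3 bp inside the gene and reached 1226 bp past its end. All 3 extended further downstream than upstream. The *Egr1* peak of the HIP, at chromosome 18 from 34861255 to 34866101 (4847 bp), covered 72.3% of the gene, left out its first 1432 bp and ended 1117 bp past it.

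**Figure D5:**
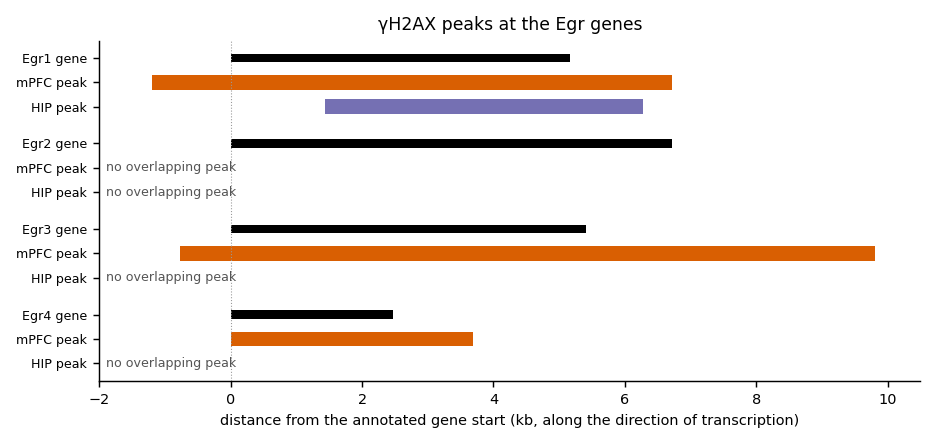
Position of the γH2AX peaks (mPFC orange, HIP purple) against the Egr genes (black), in kb from the annotated gene start along the direction of transcription. Peaks reach past the end of Egr1, Egr3 and Egr4 in the mPFC, and the HIP peak of Egr1 starts 1432 bp inside the gene.

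No peak of these lists overlapped *Egr2* in either region. The lists hold fewer peaks than the study describes, and peaks outside them were not analysed here, so each absence and distance refers to these lists only. The nearest lay 7583.0 kb away in the mPFC and 7582.9 kb away in the HIP, at *Ddit4* in both. In the HIP the nearest peak to *Egr3* was 374.9 kb away (at *Phyhip*) and that to *Egr4* 515.2 kb away (at *Add2*). The Egr peaks were short in lists of 260 mPFC peaks (625 to 605358 bp, median 16504 bp) and 282 HIP peaks (876 to 605229 bp, median 15425 bp). Of 53584 annotated genes, 1.45% overlapped a peak in the mPFC and 1.52% in the HIP. The 4 overlaps were the same when at least 50% of the gene had to lie within the peak.

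Lists of 4 kinds of related genes were set beside the family. Of 4 cofactor genes, *Nab2*, an Egr corepressor, rose in NeuN+ nuclei of both regions: by 0.83 at CFC10 (SE 0.12, adjusted p = 5.42e-05) and 0.82 at CFC30 (SE 0.12, adjusted p = 2.24e-05) in the mPFC, and by 0.50 (SE 0.11, adjusted p = 0.0150) and 0.41 (SE 0.11, adjusted p = 0.0272) in the HIP. That is 1 of 4 at each time, where 8.19% and 13.1% of genes rose in the mPFC and 2.72% and 4.67% in the HIP. *Nab1*, *Ddx20* and *Hcfc1* were not called in these comparisons, and no cofactor was called in NeuN- nuclei after CFC or in any population after corticosterone. *Nab2* was also the cofactor with an mPFC γH2AX peak. Of the other listed genes, *Arc*, *Cdk5r1*, *Junb* and *Nr4a1* had a peak in both regions, *Mrtfb* and *Npas4* in the mPFC list, and *Jun* in the HIP list. Among 11 tested genes that act upstream of Egr transcription, *Srf* rose at CFC10 in mPFC NeuN+ nuclei (0.38, adjusted p = 0.0263), and the kinase gene *Rps6ka5* fell (-0.30, adjusted p = 0.00191). At 1 of 11 each, these calls were near the shares of all genes tested, of which 8.19% rose and 813 of 12987 fell. At CFC30 *Elk1* (0.25), *Elk4* (0.34) and *Mrtfb* (0.12) rose there and *Rps6ka5* fell (-0.32). That is 3 of 11 rising, where 13.1% of genes rose, and 1 falling, where 1509 of 12987 fell. In HIP NeuN+ nuclei *Creb1* rose at CFC30 (0.25, adjusted p = 0.00751), 1 of 11 where 4.67% of genes rose. At CFC10 0 of 11 were called there, where 2.72% rose. Median log2 fold changes of the upstream list lay between -0.01 and 0.09 in these 4 comparisons, near those of all genes tested, which lay within 0.01 of 0.

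Of 6 tested genes that were described as Egr targets in other systems, *Arc*, which acts in synaptic plasticity, rose most, by 3.82 at CFC10 and 2.79 at CFC30 in mPFC NeuN+ nuclei and by 2.20 and 1.16 in HIP NeuN+ nuclei. *Arc* is itself an early response gene, so its place in this list is not particular to Egr. The synapsin gene *Syn1* rose at CFC30 in NeuN+ nuclei of the mPFC (0.17, adjusted p = 0.0120) and the HIP (0.16, adjusted p = 0.0179), *Syn2* at CFC30 in the mPFC (0.13, adjusted p = 0.0357), and *Gabra4*, a GABA receptor subunit gene, fell in the mPFC at both times (-0.19 and -0.21). In mPFC NeuN- nuclei *Arc* rose too, by 1.03 at CFC10 and 1.09 at CFC30. That is 1 of 8 tested at each time, where 0.74% and 2.68% of genes rose. Of the 6 tested in mPFC NeuN+ nuclei, 1 rose at CFC10 (8.19% of genes) and 3 at CFC30 (13.1%). There 1 fell at each time, where 813 and 1509 of 12987 genes fell. In HIP NeuN+ nuclei 1 of 6 rose at CFC10 (2.72%) and 2 at CFC30 (4.67%). Median changes of the target list were 0.15 at CFC10 and 0.17 at CFC30 in mPFC NeuN+ nuclei, and 0.02 and 0.04 in HIP NeuN+ nuclei.

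Most of 10 other early response transcription factor genes rose too. In mPFC NeuN+ nuclei 9 of 10 rose at CFC10 (median 2.42, where 8.19% of genes rose) and 8 of 10 at CFC30 (median 1.60, where 13.1% did), and 6 of 10 fell from 10 to 30 minutes, where 0.531% did. *Ier2* was among them, with a log2 fold change of 3.23 at CFC10 (adjusted p = 5.18e-05) and a fall by 2.06 from 10 to 30 minutes (adjusted p = 0.00452). In HIP NeuN+ nuclei 8 of 10 rose at CFC10 (median 1.29, where 2.72% of genes rose) and 7 of 10 at CFC30 (median 0.57, where 4.67% did), and 4 of 10 fell from 10 to 30 minutes (0.161% of genes), *Fos*, *Fosb*, *Junb* and *Npas4*. In mPFC NeuN- nuclei *Fos* (3.48) and *Nr4a1* (1.04) rose at CFC10 (2 of 8, where 0.74% of genes rose), 5 of 8 tested rose at CFC30 (2.68%), and *Fosl2*, *Nr4a1*, *Nr4a2* and *Nr4a3* were higher at 30 than at 10 minutes, where *Egr1* was not called between the times. In HIP NeuN- nuclei *Fos* rose at CFC10 (1.63) and *Fosl2*, *Nr4a1* and *Nr4a3* rose at CFC30 (0.68, 0.61 and 1.10), 1 and 3 of 7 tested where 0.122% and 1.2% of genes rose.

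After corticosterone a few genes of the lists were called. In PU.1+ nuclei, where 633 genes rose and 487 fell of 14279 tested, *Fosl2* rose (0.96) and *Junb* fell (-0.72), *Pmp22* rose (0.29) and *Cdk5r1* fell (-0.45), and of 12 upstream genes *Creb1*, *Elk3*, *Map2k1* and *Rps6ka5* fell (-0.27, -0.48, -0.32 and -0.23). In 3X- nuclei, where 730 rose and 361 fell of 14587, *Nr4a1* (0.80) and *Mrtfb* (0.48) rose and *Map2k1* (-0.25) and *Mapk3* (-0.62) fell. In GFAP+ nuclei, where 295 rose and 130 fell of 14527, *Mrtfb* rose (0.36). In NeuN+ nuclei, where 160 rose and 101 fell of 12664, *Mrtfa* rose (0.36) and *Nr4a3* fell (-0.52).

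Over the 12 CFC groups, the mean log2 level of each member was compared with those of 12554 genes, as a description of groups that share region, fraction and depth. Members were included whatever their counts, while other genes needed a mean count of at least 50 in some group. *Egr2* and *Egr4* did not reach this minimum. Their highest groups, mPFC NeuN+ nuclei at CFC10, held 140 and 134 counts over 3 libraries. Their places among the neighbours listed here therefore depend on their inclusion as members. *Egr1* was most like *Egr4* (Pearson r = 0.947), the actin regulator gene *Arpc3* (0.944), *Plpp5* (0.943), *Gm15832* (0.933) and *Egr2* (0.930). *Egr2* was most like *Fosb* (0.981) and *Arc* (0.959), followed by *Gm15832* (0.931), *Egr1* (0.930) and *Arpc3* (0.897). *Egr3* had other neighbours: *Dnajb5*, a co-chaperone gene (0.980), *Ap1s1* (0.971), the microRNA host gene *1700016P03Rik* (0.970), *Gprasp1* (0.969) and *Sfxn3* (0.968). *Egr4* was most like *Arpc3* (0.970), *Egr1* (0.947), *Egr3* (0.938), *Npas4* (0.937) and *Hirip3* (0.935). Within the family the lowest value was that of *Egr2* with *Egr3* (0.828).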

How the data were processed

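Nuclear RNA was sequenced in 74 libraries and γH2AX peaks were mapped in 2 regions, within a series of 88 samples. For RNA the authors deposited raw counts per gene over whole gene bodies, introns included. They had trimmed the first 3 nucleotides (Trimmomatic), aligned to GRCm38 (HISAT2), removed duplicates (Picard) and counted with featureCounts, whose strand setting and version are not given in the sources used here. The γH2AX lists that the authors deposited hold peak coordinates without scores, called with MACS2 on merged replicates, after Bowtie2, Picard and a mapping quality above 10, with naive and CFC30 peaks joined and genes assigned by Ensembl release 93. Every column of the count tables matched 1 sample label, and 53682 of 53749 gene IDs matched GENCODE vM21 (the 67 others held 0.0244% of counts).

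Counts were scaled by TMM and tested with edgeR 4.0.16 (glmQLFit and glmQLFTest, limma 3.58.1, R 4.3.3), within each region and fraction or sorted population for the CFC and corticosterone comparisons, and in joint fits for differences between fractions, regions and populations. Genes entered where mean FPKM, computed from plain CPM and annotated gene length, was above 0.2 in at least 1 group, and p-values were adjusted by Benjamini-Hochberg over all of them. Values are CPM as mean ± SD. Calls required an adjusted p under 0.05. SEs were derived from the log2 fold change and the F statistic. Peaks were overlapped with genes by at least 1 bp. Of naive NeuN- nuclei of the HIP, replicates 3 and 4 did not differ in any gene and entered once, which left 73 libraries. The NeuN+ fits of each region were tested on simulated counts, for the CFC10 comparison and with changes only in genes above a minimum mean count. Fits of NeuN- nuclei, of the corticosterone experiment and of differences between groups were not simulated. Intervals of count ratios are exact (Clopper-Pearson, 95%) and cover counting error only. Python 3.11.15, pandas 2.3.3, NumPy 2.4.6, SciPy 1.17.1 and matplotlib 3.10.9 were used.

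The genes named were the 4 members, all genes of 4 lists (cofactors, upstream genes, targets described in other systems, other early response transcription factor genes) that were called, and for each member the 5 genes with the highest Pearson correlation of log2(mean CPM + 0.1) over 12 groups, among the members and all genes with a mean count of at least 50 in 1 of them. Members and lists were chosen with earlier results of these data known. Same-numbered replicates deviated together in each of 4 pairs only in GFAP+ nuclei of the corticosterone experiment (correlations of deviations 0.105 to 0.445). The labels do not say what a shared number stands for. The GFAP+ values given come from the fit without a replicate block and so do not account for this shared deviation. The blocked fit called no member either. Alternatives were DESeq2 1.42.0, its size factors in edgeR, filterByExpr or no FPKM threshold, fits of only the groups compared or of all groups, a replicate block, both identical libraries kept, each library left out in turn, and an overlap of 50% of the gene.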

Additional observations from a re-analysis of the deposited data

Results flagged for a closer look

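In groups of 4 libraries, 4 of 52 sets of member values held a library far from the others, and chance gives about 1 in 20. *Egr1* in hippocampal NeuN+ nuclei at CFC30 was at 6.31 CPM in replicate 3, against 3.24, 3.37 and 3.61 CPM in the others, and its call over naive was lost without that library. *Egr3* in hippocampal NeuN- nuclei at CFC10 was at 0.624 CPM in replicate 3, against 1.38, 1.5 and 1.5 CPM in the others. *Egr2* in NeuN+ nuclei after saline was at 0.241 CPM in replicate 1 and at 0 in the other replicates. *Egr3* in PU.1+ nuclei after saline was at 3.78 CPM in replicate 3, against 2.28, 2.38 and 2.4 CPM in the others.

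The *Egr3* change over naive in NeuN+ nuclei was larger in the mPFC than in the HIP by 1.54 at CFC10 and by 1.6 at CFC30 on the log2 scale, in a test of the difference itself by edgeR. Region and kit version cannot be told apart in this difference.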

How the results depend on the processing

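Of 366 member values under alternatives that kept all libraries, 345 kept their direction and side of the threshold, 16 gained a call, 4 lost one and 1 changed sign. With 1 library left out this held for 525 of 565, with 7 calls gained, 25 lost and 8 changes of sign. Calls held under every alternative that gave a p for *Egr1* and *Egr3* at CFC10 in hippocampal NeuN+ nuclei, for all 4 members at CFC10 and *Egr1*, *Egr2* and *Egr3* at CFC30 in mPFC NeuN+ nuclei, for *Egr1* at CFC30 in mPFC NeuN- nuclei and for the *Egr3* differences between regions. Another 45 uncalled values that are not given here stayed uncalled in all 770 repeats, 61 of them with the other sign. The cause of the changes that follow was not tested.

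The number of members called was 1 in place of 0 in hippocampal NeuN- nuclei at CFC10 with both identical libraries kept, with no FPKM threshold and with a replicate block, and at CFC30 with no FPKM threshold. It was 2 in place of 1 in mPFC NeuN- nuclei at CFC30 with no threshold, with only the groups compared in the fit and with a replicate block. Without the threshold it was 2 in place of 1 for the regional differences at CFC10 and CFC30, and 2 at CFC10 and 1 at CFC30 in place of 0 for the mPFC fraction differences, where DESeq2 also called 2 at CFC10. That setting gave much smaller p-values in general (*Egr1* in mPFC NeuN+ nuclei between 30 and 10 minutes, 1.55e-41 in place of 1.42e-06). For GFAP+ over NeuN+ nuclei after saline it was 1 in place of 2 with DESeq2, DESeq2 size factors, filterByExpr and no threshold.

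With 1 library left out, the number called ranged from 0 to 2 in hippocampal NeuN+ nuclei at CFC30, from 0 to 1 in mPFC NeuN- nuclei at CFC10, from 1 to 2 for the regional difference at CFC30, from 0 to 2 for the mPFC fraction difference at CFC10, and from 1 to 2 for GFAP+ over 3X-, GFAP+ over NeuN+ and PU.1+ over 3X- nuclei after saline. The libraries concerned are named beside these results. Uncalled values that changed sign when 1 library was left out were those of *Egr1* (-0.030 to 0.40) and *Egr3* (-0.26 to 0.013, and 0.00436 without saline replicate 3) after corticosterone in GFAP+ nuclei, *Egr3* at CFC10 in hippocampal NeuN- nuclei (-0.013 to 0.91), the hippocampal fraction differences of *Egr3* at CFC10 (-0.93 to 0.00983) and CFC30 (-0.53 to 0.41), and the mPFC fraction difference of *Egr1* at CFC30 (-0.44 to 0.15, and 0.069 without NeuN- CFC30 replicate 3). With both identical libraries kept, the hippocampal difference of *Egr3* at CFC30 was 0.078. The replicate block changed no other count of members called, in GFAP+ nuclei or elsewhere. Outside GFAP+ nuclei same-numbered samples did not deviate together in each pair, and the sources do not say for each library whether they share an animal. Low counts limit *Egr2* outside mPFC NeuN+ nuclei and *Egr4* in glia, and in 10 comparisons DESeq2 gave no adjusted p for any member.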
